A study of Homo sapiens with 14 samples.

Results

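Occupancy of RNA polymerase II (RNAPII) was described for 9 spindle assembly and cytokinesis genes, ASPM, TPX2, NUSAP1, PRC1, ANLN, ECT2, HMMR, DLGAP5 and CKAP2, out of 12425 genes in a table of chromatin immunoprecipitation and sequencing (ChIP-seq) reads. The 9 genes were chosen by name, for their roles in mitosis, with earlier results of these data known. All 9 were found in the table by their hg38 span. The cells were BJ hTERT, a human foreskin fibroblast line kept dividing by telomerase. One antibody recognised RPB1, the catalytic subunit of RNAPII, and measured total RNAPII. The other recognised RPB1 phosphorylated on serine 2 of its C-terminal repeats (Ser2), a form carried by polymerase that is elongating through genes. With each antibody, libraries were made at 16, 19 and 22 h from cells given an inhibitor of the kinase ATR (ATRi). Matching libraries came from cells given the vehicle DMSO. Each antibody also had a 14 h library, labelled CTR, from cells with no named treatment. ATR responds to stalled replication forks, and the study asked how its inhibition affects RNAPII transcription in S phase. The inhibitor, its dose, any synchronisation and what the hours count from are not given in the sources used here. Both RNAPII antibodies come from the antibody labels; the protocol text speaks of histone antibodies alone.

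Cells build the spindle anew in every mitosis: microtubules are nucleated around chromosomes and at the poles, bundled, and attached to kinetochores. After the chromosomes have parted, the bundled microtubules between them mark where the small GTPase RhoA is switched on, and a ring of actin and myosin divides the cell. Many genes of this machinery are transcribed periodically, low in G1 and high in G2 and mitosis, under the MuvB complexes with B-MYB and FOXM1, while others serve cells at all times.

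There was 1 library for each of the 14 combinations, so no group carried an error of its own. P-values below measure only the spread between these libraries, whether biological or technical, and the tests share part of that spread across genes. The libraries held 17181179 to 62368915 reads. Levels are in RPM, the reads on a gene from start to end for every 1000000 reads of its library, and all libraries gave whole reads on recovery. The 9 genes held 215 to 9846 reads each in a library. Libraries differed in how many reads fell in genes: at 19 h the share was 65.6% in ATRi and 63.5% in DMSO for Ser2, and 70.8% in ATRi and 72.0% in DMSO for total RNAPII, against 35.8% to 57.4% in the other treated libraries. Most genes therefore shifted together between hours on the RPM scale, and changes are also given relative to the median gene. Of 15 fibroblast markers, 13 were in the table, with a median density of 1.20 to 4.29 RPM per kb over the libraries. Keratinocyte, endothelial and melanocyte markers had 1 gene each in the table (KRT14, VWF and MITF), at no more than 0.330 RPM per kb, and no blood marker was among its genes. Background, taken as the 5th percentile of gene density, was 0.22 to 0.29 RPM per kb. In a bulk culture, more cells at one stage of the cell cycle and more polymerase on the gene in each cell cannot be told apart.

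The genes lie on 8 chromosomes. ASPM (ENSG00000066279) spans chr1:197084128-197146694 on the minus strand, TPX2 (ENSG00000088325) chr20:31739271-31801805 on the plus strand, and NUSAP1 (ENSG00000137804) chr15:41332694-41381050 on the plus strand. HMMR (ENSG00000072571) spans chr5:163460203-163491945, plus, DLGAP5 (ENSG00000126787) chr14:55148112-55191678, minus, and CKAP2 (ENSG00000136108) chr13:52455429-52476628, plus. Of the cytokinesis genes, PRC1 (ENSG00000198901) spans chr15:90966038-90995629, minus, ANLN (ENSG00000011426) chr7:36389806-36453791, plus, and ECT2 (ENSG00000114346) chr3:172750682-172821474, plus. Reads were summed over exons and introns alike. Other listed genes overlapped 3 of them: the 560 bp pseudogene SEPTIN14P12 inside ASPM, a gene of 1146 bp inside NUSAP1, and MATCAP2, divergent from ANLN, over 320 bp. These overlaps covered at most 2.37% of a member, and reads within them cannot be assigned to one gene.

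Promoter sequence was available for 8 of the 9 genes (RefSeq, GRCh38.p14, 250 bases before to 50 after the start). The cell cycle homology region (CHR, TTTGAA or TTCGAA) and the CCAAT box (CCAAT) were searched on both strands, because MuvB complexes bind CHRs and NF-Y binds CCAAT boxes in promoters of G2 and mitosis genes. For the E2F motif the letters TTCCCGC, the letters TTCGCGC, the letters TTGCCGC and the letters TTGGCGC were searched, again on both strands. A CHR was present in 7 of 8 members, against 16.6% of all 27305 RefSeq promoters and 11.1% of the 8599 promoters of genes in the table. A CCAAT box was present in 6 of 8, against 35.7% of all promoters, and both motifs stood together in 6 of 8, against 6.58%. An E2F motif was present in 4 of 8, against 13.1% of all promoters and 21.3% of those of genes in the table. CKAP2 held none of these letters in its window, and its RefSeq start lay 559 bases inside the gene as listed. The RefSeq starts of PRC1, HMMR and NUSAP1 also lay inside, by 1094, 429 and 187 bases. These genes were counted among the members with a CHR and a CCAAT box. Stretches of 150 bases up to the RefSeq start are shown for ASPM, ANLN, ECT2 and DLGAP5, whose RefSeq and listed starts lay closest together, 25 to 93 bases apart. Capitals mark CHR and CCAAT letters on either strand, so that a reverse match reads TTCAAA or ATTGG.
ASPM, chr1:197146670-197146819, minus strand: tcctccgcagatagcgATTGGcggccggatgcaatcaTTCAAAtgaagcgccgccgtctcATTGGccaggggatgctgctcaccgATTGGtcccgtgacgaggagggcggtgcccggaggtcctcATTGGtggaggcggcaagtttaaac
ANLN, chr7:36389712-36389861, plus strand: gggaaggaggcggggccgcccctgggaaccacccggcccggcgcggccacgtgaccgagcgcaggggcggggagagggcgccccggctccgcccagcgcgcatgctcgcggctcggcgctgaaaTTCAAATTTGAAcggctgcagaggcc
ECT2, chr3:172750576-172750725, plus strand: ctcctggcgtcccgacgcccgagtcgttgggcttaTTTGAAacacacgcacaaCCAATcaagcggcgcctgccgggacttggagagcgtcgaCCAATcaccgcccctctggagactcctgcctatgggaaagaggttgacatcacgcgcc
DLGAP5, chr14:55191586-55191735, minus strand: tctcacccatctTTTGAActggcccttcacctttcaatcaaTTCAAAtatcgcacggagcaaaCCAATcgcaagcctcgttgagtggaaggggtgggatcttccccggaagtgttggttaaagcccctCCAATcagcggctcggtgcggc
ASPM held 1 CHR among 4 CCAAT boxes. ANLN had no CCAAT box and carried 2 CHRs end to end in opposite orientation. In the stretches shown, 1 CHR in ECT2 and 2 CHRs in DLGAP5 stood upstream of 2 CCAAT boxes. Such matches describe letters in a window and are not evidence of binding here.

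**Figure D1:**
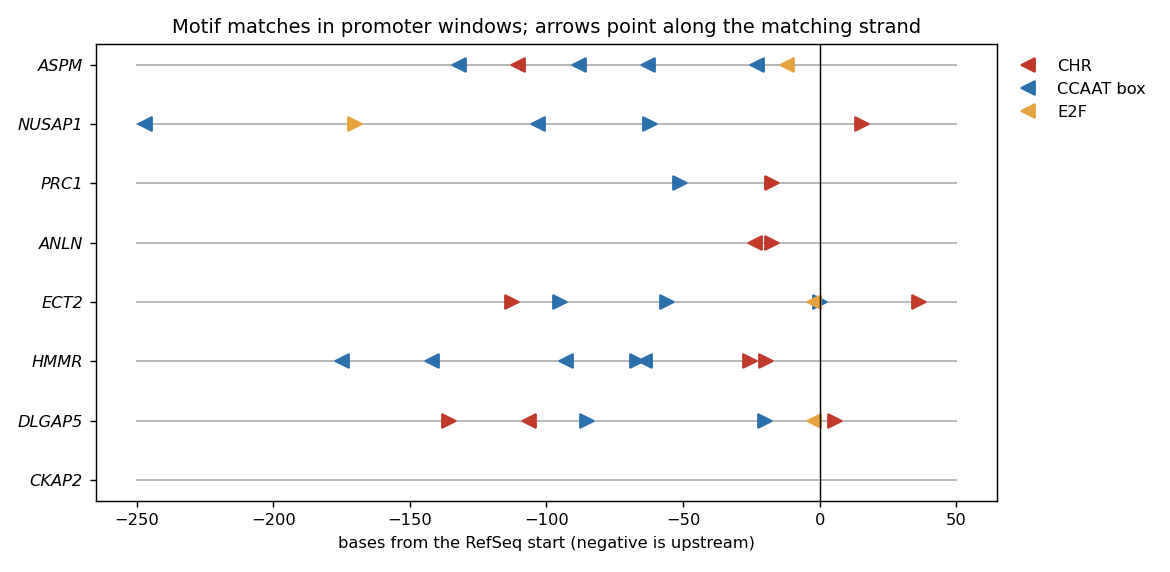
Positions of CHR, CCAAT box and E2F letters in the promoter windows of 8 members, from 250 bases before to 50 after the RefSeq start at 0, with arrows along the matching strand. Of the 8 windows, 7 hold a CHR and 6 a CCAAT box; CKAP2 holds none of the motifs.

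The genes with the highest RNAPII density were 2 cytokinesis genes. ANLN, the scaffold anillin that links actin, myosin and septins in the contractile ring, had a median of 1.53 RPM per kb in Ser2 and 1.95 RPM per kb in total RNAPII over 7 libraries each. PRC1, which cross-links antiparallel microtubules of the central spindle, followed at 1.09 RPM per kb in Ser2 and 1.56 in total RNAPII. CKAP2, a microtubule-associated protein of the spindle poles, followed with 0.976 RPM per kb in Ser2 and 1.28 in total RNAPII. The order of ANLN, PRC1 and CKAP2 held in 7 of 7 libraries of each antibody. DLGAP5, which stabilises the microtubules attached to kinetochores, was lowest at 0.625 RPM per kb in Ser2 and 0.674 in total RNAPII, below its neighbour in the order in 7 of 7 libraries of each antibody. The genes in between, CKAP2 included as the upper neighbour, changed places among libraries: each neighbouring pair kept the order of its medians in 2 to 6 of 7 libraries. ANLN reached 4.04 times the median gene density in total RNAPII at 22 h in ATRi. DLGAP5 had as little as 0.692 times that density, in total RNAPII at 16 h in DMSO.

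TPX2, which activates the kinase Aurora A and starts microtubules near chromatin, had 33.8 RPM in Ser2 at 14 h, 40.0 in ATRi and 36.8 in DMSO at 16 h, 101 in ATRi and 95.4 in DMSO at 19 h, and 68.7 in ATRi and 55.6 in DMSO at 22 h. In total RNAPII, TPX2 had 44.2 RPM at 14 h, 70.0 in ATRi and 58.3 in DMSO at 16 h, 111 in ATRi and 111 in DMSO at 19 h, and 106 in ATRi and 61.3 in DMSO at 22 h. Ser2 was lowest at 14 and 16 h and highest at 19 h, whereas total RNAPII at 22 h stayed near its 19 h level in ATRi and lay near its 16 h level in DMSO. ASPM, which binds microtubule minus ends at spindle poles, had 33.4 RPM in Ser2 at 14 h, 41.9 in ATRi and 34.3 in DMSO at 16 h, 92.3 in ATRi and 86.0 in DMSO at 19 h, and 71.4 in ATRi and 55.7 in DMSO at 22 h. Total RNAPII on ASPM was 41.3 RPM at 14 h, 71.4 in ATRi and 52.6 in DMSO at 16 h, 93.8 in ATRi and 90.1 in DMSO at 19 h, and 115 in ATRi and 60.9 in DMSO at 22 h. ASPM had its highest total RNAPII at 22 h in ATRi, not at 19 h.

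NUSAP1, a microtubule bundler near chromosomes, had 26.2 RPM in Ser2 at 14 h, 30.6 in ATRi and 28.3 in DMSO at 16 h, 79.9 in ATRi and 77.6 in DMSO at 19 h, and 51.8 in ATRi and 44.5 in DMSO at 22 h. Total RNAPII on NUSAP1 was 31.8 RPM at 14 h, 53.5 in ATRi and 47.0 in DMSO at 16 h, 92.3 in ATRi and 96.8 in DMSO at 19 h, and 87.6 in ATRi and 47.7 in DMSO at 22 h. The pattern was that of TPX2, with the DMSO libraries at 22 h and 16 h within 1 RPM of each other in total RNAPII. HMMR, a hyaluronan receptor that also acts at spindle poles, had 17.7 RPM in Ser2 at 14 h, 19.1 in ATRi and 17.4 in DMSO at 16 h, 39.0 in ATRi and 34.7 in DMSO at 19 h, and 27.1 in ATRi and 22.0 in DMSO at 22 h. Total RNAPII on HMMR was 25.4 RPM at 14 h, 37.8 in ATRi and 33.8 in DMSO at 16 h, 49.3 in ATRi and 50.8 in DMSO at 19 h, and 47.8 in ATRi and 28.5 in DMSO at 22 h. HMMR had less total RNAPII at 22 h than at 16 h in DMSO, where 16.4% of all genes had a ratio above 0. The log2 ratio was -0.24 for HMMR and -0.26 for the median gene.

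DLGAP5 had 17.2 RPM in Ser2 at 14 h, 21.6 in ATRi and 19.0 in DMSO at 16 h, 34.6 in ATRi and 32.9 in DMSO at 19 h, and 30.9 in ATRi and 27.2 in DMSO at 22 h. Total RNAPII on DLGAP5 was 19.1 RPM at 14 h, 29.4 in ATRi and 22.1 in DMSO at 16 h, 38.4 in ATRi and 37.1 in DMSO at 19 h, and 43.0 in ATRi and 28.4 in DMSO at 22 h. Its Ser2 signal spread over the narrowest range of the 9 genes, with a highest library 2.01 times the lowest. In that lowest library, at 14 h, DLGAP5 had 0.40 RPM per kb where background was 0.26. The part of background in this range was not tested. CKAP2 had 11.8 RPM in Ser2 at 14 h, 13.4 in ATRi and 12.7 in DMSO at 16 h, 36.6 in ATRi and 36.7 in DMSO at 19 h, and 25.2 in ATRi and 20.7 in DMSO at 22 h. Total RNAPII on CKAP2 was 16.2 RPM at 14 h, 27.1 in ATRi and 21.9 in DMSO at 16 h, 44.0 in ATRi and 45.2 in DMSO at 19 h, and 43.5 in ATRi and 22.8 in DMSO at 22 h. CKAP2 again paired a high 22 h ATRi library with a 22 h DMSO library near 16 h.

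Among the cytokinesis genes, ANLN had 62.3 RPM in Ser2 at 14 h, 64.2 in ATRi and 54.3 in DMSO at 16 h, 196 in ATRi and 179 in DMSO at 19 h, and 125 in ATRi and 98.1 in DMSO at 22 h. Total RNAPII on ANLN was 74.2 RPM at 14 h, 125 in ATRi and 106 in DMSO at 16 h, 212 in ATRi and 202 in DMSO at 19 h, and 223 in ATRi and 108 in DMSO at 22 h. Its Ser2 range was the widest of the 9 genes, with a highest library 3.61 times the lowest. ECT2, the exchange factor that activates RhoA at the division plane, had 43.7 RPM in Ser2 at 14 h, 38.4 in ATRi and 37.8 in DMSO at 16 h, 105 in ATRi and 103 in DMSO at 19 h, and 75.7 in ATRi and 56.6 in DMSO at 22 h. Total RNAPII on ECT2 was 50.2 RPM at 14 h, 67.5 in ATRi and 61.6 in DMSO at 16 h, 114 in ATRi and 112 in DMSO at 19 h, and 114 in ATRi and 66.7 in DMSO at 22 h. Ser2 on ECT2 was lower at 16 h than at 14 h. PRC1 had 21.8 RPM in Ser2 at 14 h, 23.03 in ATRi and 21.1 in DMSO at 16 h, 61.4 in ATRi and 61.2 in DMSO at 19 h, and 40.9 in ATRi and 32.1 in DMSO at 22 h. Total RNAPII on PRC1 was 29.5 RPM at 14 h, 46.2 in ATRi and 38.7 in DMSO at 16 h, 73.7 in ATRi and 76.2 in DMSO at 19 h, and 67.8 in ATRi and 37.2 in DMSO at 22 h. On the RPM scale the 3 cytokinesis genes and the 6 spindle genes thus shared low early libraries and a 19 h peak in DMSO. They also shared an ATRi library above its DMSO library at 22 h. The median gene likewise peaked at 19 h in DMSO and stood higher in ATRi than in DMSO at 22 h.

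**Figure D2:**
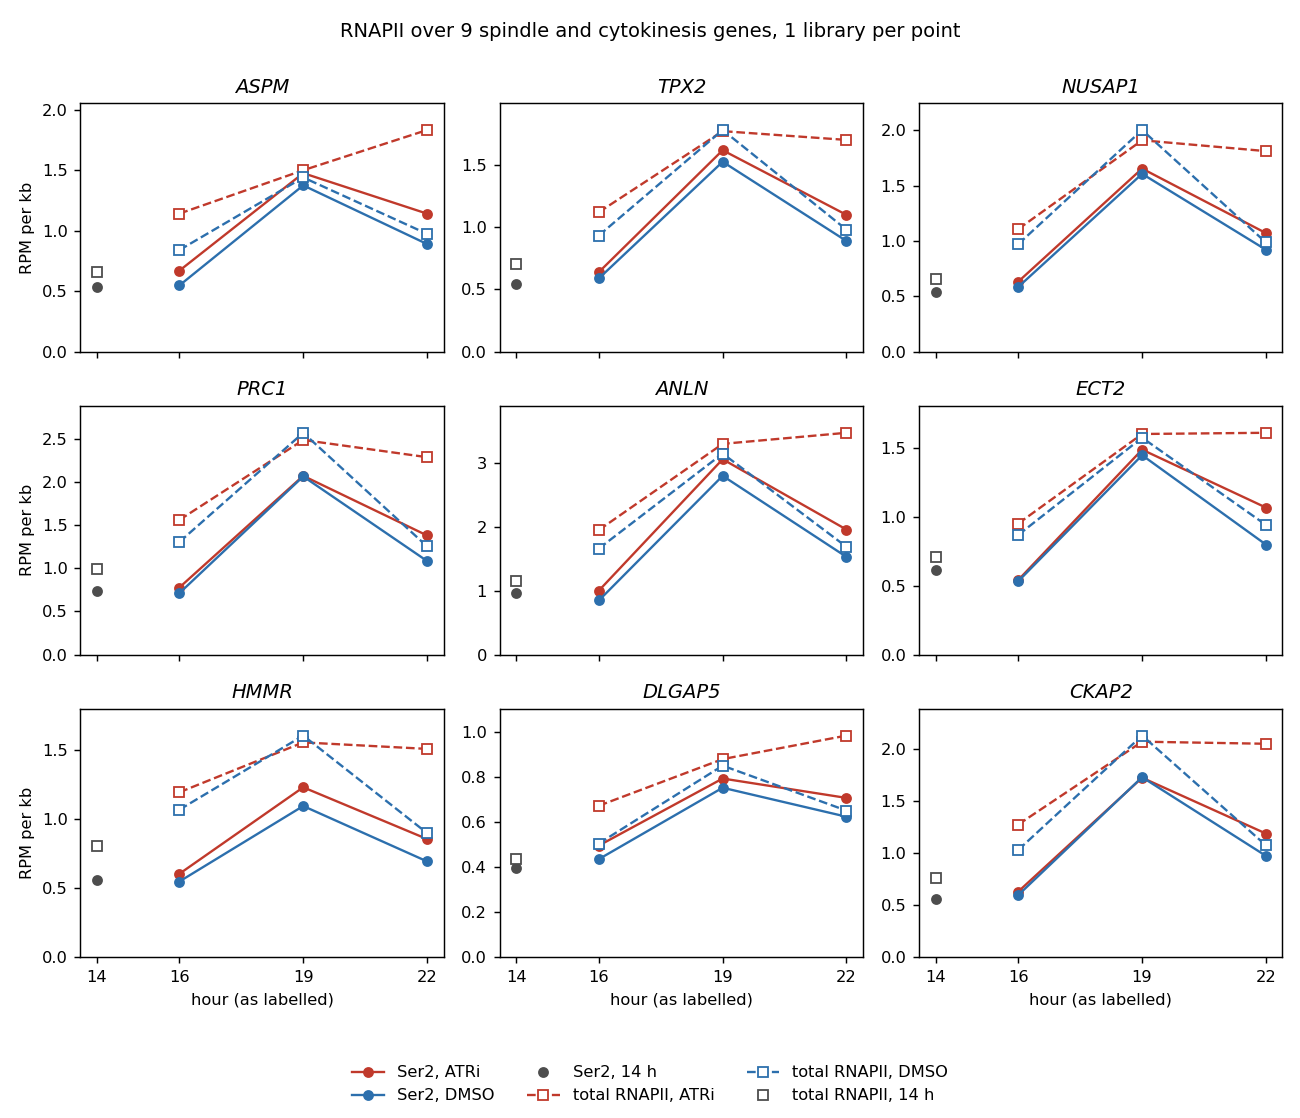
RNAPII density in RPM per kb for each of the 9 genes against the labelled hour, 1 library per point (filled circles, Ser2; open squares, total RNAPII; red, ATRi; blue, DMSO; grey, 14 h). The y axes differ between genes and start at 0; at 22 h total RNAPII in ATRi stands above every other 22 h library, for ANLN at 223 RPM against 108 RPM in DMSO.

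Ser2 on all 9 genes was higher at 22 h than at 16 h, where 39% of all genes were called higher and 0.918% lower by the same rule and the median gene stood at 0.21 on the log2 scale. The change was 0.90 ± 0.09 on the log2 scale for ANLN (adjusted p = 3.47e-06), 0.77 ± 0.10 for ECT2 (adjusted p = 3.27e-05) and 0.71 ± 0.10 for PRC1 (adjusted p = 6.33e-05), and so 1.87-fold, 1.71-fold and 1.63-fold. The spindle genes CKAP2, ASPM, NUSAP1 and TPX2 rose by 0.79, 0.73, 0.70 and 0.68. DLGAP5 rose by 0.50 ± 0.09 (adjusted p = 0.000556) and HMMR by 0.41 ± 0.10 (adjusted p = 0.00275). Values are limma estimates on log2(RPM + 0.5), each the mean of the ATRi pair and the DMSO pair of libraries, with standard errors. P-values are adjusted by Benjamini-Hochberg over all 11989 genes tested at a threshold of 0.05. With every library centred on its median gene, 8 of 9 members were called, all but HMMR (0.19, adjusted p = 0.127), against 10.2% of all genes called higher and 10.5% lower. The edgeR and DESeq2 tests on recovered reads called 8 and 7 members, where edgeR called 1160 of all genes higher and 911 lower and DESeq2 623 higher and 597 lower. Each pair of libraries gave a ratio above 0 for all 9 members, as for 71.6% of all genes. The members' median lay 0.50 above the median gene, and all 9 were above it in the ATRi pair and in the DMSO pair, as were 36.1% of all genes. With a background density subtracted from each library, no member was called (adjusted p = 0.0832 for each, changes of 0.72 to 1.31). Of all genes only 2 were then called higher and 10 lower. All 9 members had an unadjusted p under 0.05 in that fit, and the share of all genes under that p was not computed. The error came from a fit of all 6 treated Ser2 libraries, those of 19 h included, and limma drew it towards the errors of other genes. A gene had 2 residual degrees of freedom of its own, against 18.5 in total after that step. The ATRi and DMSO libraries of an hour stood in for replicates, so anything common to them cannot be told apart from that hour.

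Total RNAPII between 22 h and 16 h gave no call. Member changes were 0.04 ± 0.24 for HMMR to 0.45 ± 0.25 for DLGAP5, against -0.06 for the median gene. Of 12031 genes tested, 0% were called in either direction by limma, 355 had an unadjusted p under 0.05, and none of those was a member. With median centring 8 members had an unadjusted p under 0.05, as with edgeR, and 7 with DESeq2. The share of all genes under that p was not computed for these fits, so the counts have no background beside them. DESeq2 on recovered reads called 24 genes higher and 26 lower but no member, and edgeR called none of either. Ratios were above 0 in both pairs for 7 members, against 10.7% of all genes, and above the median gene in both pairs for all 9, against 25.9%. The pairs differed: the ATRi pair gave 0.33 to 0.83, and the DMSO pair gave -0.24 to 0.36, with HMMR at -0.24 and PRC1 at -0.06. When each library's trend against read density was removed, 8 members were called higher (adjusted p = 0.00117 to 0.0131), among 576 genes higher and 583 lower, and HMMR was not (0.13, adjusted p = 0.299). The difference of the 22 h to 16 h change between Ser2 and total RNAPII was 0.48 ± 0.28 for ANLN, 0.46 ± 0.27 for PRC1, 0.42 ± 0.29 for CKAP2 and down to 0.05 ± 0.22 for DLGAP5, with a median gene at 0.29. None of these was called, nor was any of 12013 genes (0% in either direction by limma; 434 at an unadjusted p under 0.05, none a member; 0 by edgeR and by DESeq2).

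**Figure D3:**
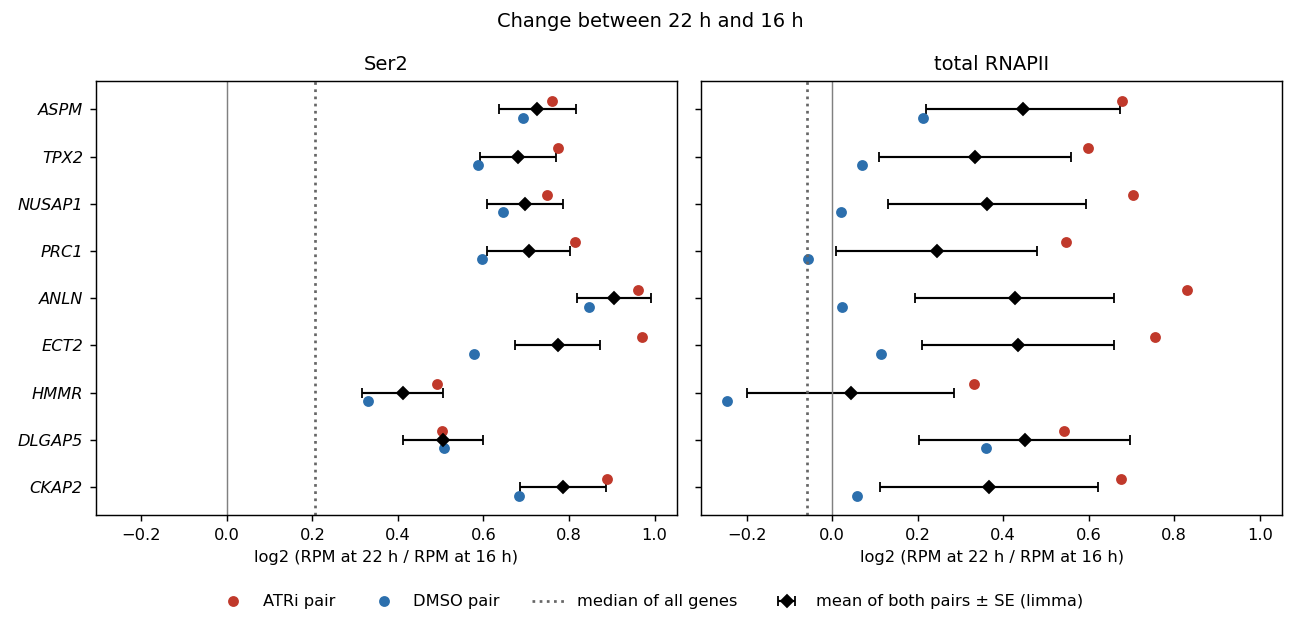
Log2 ratio of RPM at 22 h to RPM at 16 h for each gene, in Ser2 (left) and total RNAPII (right); red points, ATRi pair; blue points, DMSO pair; black diamonds, their mean ± SE from limma; dotted line, median of all genes. In Ser2 both pairs of each gene lie above the median gene at 0.21, while in total RNAPII the ATRi pairs reach 0.83 and the DMSO pairs lie between -0.24 and 0.36.

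In DMSO all 9 genes had their highest Ser2 and total RNAPII at 19 h. The median gene in DMSO also peaked at 19 h, at 29.0 RPM in Ser2 and 35.6 RPM in total RNAPII. At 22 h in DMSO it had 17.8 and 19.8 RPM. Relative to the median gene and to each antibody's mean, the members in DMSO averaged 0.08 at 19 h and 0.09 at 22 h in total RNAPII. In Ser2 these log2 averages were 0.20 and 0.16. In ATRi total RNAPII was highest at 22 h for ASPM, ANLN, ECT2 and DLGAP5. For ECT2 it was 114.2 RPM at 22 h and 113.6 RPM at 19 h. The 95% counting intervals of these ECT2 values overlapped (109.9 to 118.5 and 110.5 to 116.7). Between 16 h in DMSO and 14 h the log2 change was -0.21 to 0.14 in Ser2 and 0.20 to 0.56 in total RNAPII, from single libraries. At 19 h against 16 h, Ser2 on all 9 genes rose, by 0.72 ± 0.09 for DLGAP5 to 1.66 ± 0.09 for ANLN, or 1.65-fold to 3.16-fold (adjusted p = 5.83e-07 to 1.61e-11). At that step 85.9% of all genes were called higher in Ser2, so the count of members is near the background. Relative to the median gene, 7 members were called in Ser2 against 35.4% of all genes, with ANLN at 0.81 ± 0.08 and PRC1 and CKAP2 at 0.60 ± 0.09. HMMR (0.14, adjusted p = 0.169) and DLGAP5 (-0.13, adjusted p = 0.172) were not called after centring, and DLGAP5 thus changed sign. In total RNAPII 7 members rose at 19 h against 16 h, NUSAP1 most with 0.91 ± 0.23 (adjusted p = 0.00601), against 39.8% of all genes called higher. HMMR (0.48, adjusted p = 0.0962) and DLGAP5 (0.56, adjusted p = 0.0616) were not called. After centring, 0 members were called in total RNAPII against 3.75% of all genes, and edgeR and DESeq2 on the recovered reads likewise called 0. With centring, 6 members had an unadjusted p under 0.05, and the share of all genes under that p was not computed. At 22 h against 19 h, single pairs of libraries gave for Ser2 -0.64 to -0.16 in ATRi and -0.92 to -0.27 in DMSO. For total RNAPII the same comparison gave -0.12 to 0.29 in ATRi and -1.03 to -0.38 in DMSO, where the median gene gave -0.33 in ATRi and -0.91 in DMSO. All 9 genes were above the median gene in the ATRi libraries of total RNAPII there, and 6 of 9 in DMSO.

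In single pairs of libraries, the 9 genes had more total RNAPII in ATRi than in DMSO at 16 h and at 22 h, beyond counting error, but the mean over the 3 hours passed the test for none of them. At 22 h the log2 ratio of ATRi to DMSO was 1.04 for ANLN, 0.93 for CKAP2, 0.91 for ASPM, 0.88 for NUSAP1 and 0.87 for PRC1. TPX2 followed at 0.80, ECT2 at 0.77, HMMR at 0.75 and DLGAP5 at 0.60, and the median gene had 0.50. At 16 h the ratios were 0.13 for ECT2 to 0.44 for ASPM, with a median gene at 0.05. At both hours the 95% counting intervals of all 9 lay above 0, and all 9 lay above the median gene. Of all genes, 63.4% had a ratio above 0 at 16 h and 88.9% at 22 h, a looser rule than an interval above 0. Intervals were computed for the members alone, so no share of all genes stands beside their interval counts. At 19 h the ratios were -0.07 for NUSAP1 to 0.07 for ANLN, with 7 of 9 intervals spanning 0. The median gene then had -0.03, and 40.5% of all genes had a ratio above 0. These intervals cover counting error only, and reads without molecular identifiers are not independent molecules. The 22 h pair also differed in its share of reads in genes, 57.4% in ATRi against 42.8% in DMSO, and the part of that shift in the members' ratios was not tested beyond the comparison with the median gene.

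Over the 3 hours, the mean ATRi to DMSO change in total RNAPII was 0.28 ± 0.20 for HMMR to 0.47 ± 0.19 for ASPM, with ANLN at 0.45 ± 0.19, against 0.18 for the median gene. Without the 22 h libraries the means were 0.06 for HMMR and NUSAP1 to 0.25 for ASPM, with ANLN at 0.15, and without the 19 h libraries they were 0.45 for HMMR and ECT2 to 0.67 for ASPM. No member was called (adjusted p = 0.767 for each), and 0% of 12031 genes were called by limma, edgeR or DESeq2. ASPM and ANLN were among 204 genes with an unadjusted p under 0.05. The change was above 0 at all 3 hours in 4 members, ASPM, ANLN, ECT2 and DLGAP5, against 18% of all genes. It was above the median gene at all 3 hours in 5 members, against 8.33% of all genes. An exact two-sided sign test over 3 hours has 0.25 as its smallest p.

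In Ser2 the ATRi to DMSO ratios at 22 h were 0.18 for DLGAP5 to 0.42 for ECT2, with all 9 intervals above 0 and all 9 genes above the median gene at 0.16. At 16 h they were 0.02 for ECT2 to 0.29 for ASPM, with 3 intervals above 0 and 6 spanning it. At 19 h they were -0.0042 for CKAP2 to 0.17 for HMMR, with 4 intervals above 0. The median gene stood at 0.06 at 16 h and at 19 h. Of all genes, 65.6% had a ratio above 0 at 16 h, 75.1% at 19 h and 80.7% at 22 h. That rule is again looser than an interval above 0, for which no share of all genes was computed. The mean over the hours was 0.12 ± 0.08 for CKAP2 to 0.25 ± 0.07 for ASPM, with ANLN at 0.24 ± 0.07 and the median gene at 0.10. No member was called (ASPM and ANLN had the lowest adjusted p, 0.0946), and 0% of 11989 genes were called higher by limma, with 2655 genes and 4 members at an unadjusted p under 0.05. DESeq2 called 16 genes lower and no member, and edgeR called none. Ratios were above 0 at all 3 hours in 8 members, against 42.6% of all genes, and above the median gene in 5, against 16%. Without the 19 h libraries, ASPM (0.32, adjusted p = 0.0429) and ANLN (0.30, adjusted p = 0.0437) were called, among 848 genes.

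**Figure D4:**
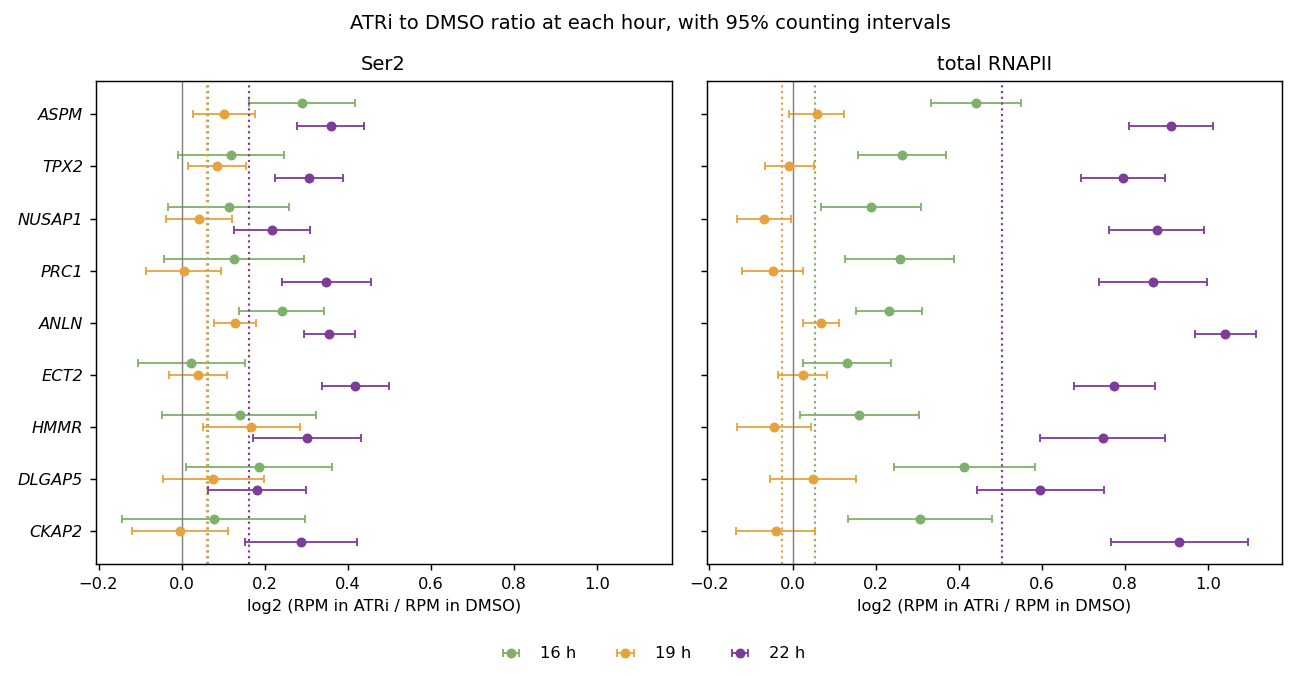
Log2 ratio of RPM in ATRi to RPM in DMSO for each gene at 16, 19 and 22 h, in Ser2 (left) and total RNAPII (right). Points are single pairs of libraries, bars are 95% counting intervals and dotted lines mark the median gene of each hour; the 22 h ratios of total RNAPII lie between 0.60 and 1.04, those of Ser2 between 0.18 and 0.42.

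The ATRi to DMSO change in Ser2 less that in total RNAPII was -0.27 ± 0.24 for CKAP2 to -0.08 ± 0.21 for HMMR, and it passed the test for none of the 9 (adjusted p = 1.00) and for 0% of 12013 genes (9 at an unadjusted p under 0.05, no member; 0 by edgeR and by DESeq2). The median gene had a difference of -0.06 and all 9 members lay below it, 6 of them at every hour, against 8.8% of all genes. ANLN, HMMR and NUSAP1 had a difference above 0 without the 22 h libraries. The ratio of Ser2 to total RNAPII, relative to the median gene, was -0.36 for ANLN to -0.01 for DLGAP5 at 22 h in ATRi, below the median gene for all 9, whereas 2 of 9 lay above it at 22 h in DMSO. At 16 h it was below the median gene for all members except DLGAP5, in ATRi and in DMSO. At 19 h 5 of 9 were above the median gene in ATRi, and 5 of 9 in DMSO. DLGAP5 had the highest value at 16 h, 0.17 in ATRi and 0.39 in DMSO, and HMMR, PRC1 and CKAP2 were below the median gene in all 7 conditions.

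Of 25 further cell-cycle spindle genes, 24 were called higher in Ser2 at 22 h than at 16 h, against 39% of all genes, and 21 relative to the median gene, against 10.2%, with a list median 0.43 above the median gene. They were led by GTSE1 (1.05 ± 0.10, adjusted p = 2.46e-06) and KIF2C, a kinesin that takes microtubules apart (1.02 ± 0.10, adjusted p = 2.94e-06), with KIF18B at 0.93 and SPAG5 at 0.84. All 13 further cell-cycle cytokinesis genes were called, 10 of them relative to the median gene, with a list median 0.35 above it. The kinase AURKB of the chromosomal passenger complex (1.27 ± 0.11, adjusted p = 1.18e-06) and its partner INCENP (0.94 ± 0.10, adjusted p = 6.24e-06) led these, with CKAP2L at 0.89 and CDCA8 at 0.74. Among genes listed as used at all times, 18 of 26 spindle genes were called higher, with 4 higher and 1 lower relative to the median gene. Of 21 such cytokinesis genes, 15 were called higher, with 6 higher relative to the median gene. The differences between lists were not tested. KPNA2, an importin (0.95 ± 0.11, adjusted p = 1.76e-05), and MYH9, the heavy chain of nonmuscle myosin II (0.72 ± 0.10, adjusted p = 4.68e-05), led the lists of genes used at all times. KPNA2 did not behave unlike the members, however: over all 14 libraries its profile ranked 3 in likeness to their mean, at a Pearson r of 0.979. CKAP5, NUMA1 and KPNB1 followed with 0.58, 0.45 and 0.55, and RHOA, VPS4A and ROCK1 with 0.50, 0.58 and 0.44. Of 36 genes of G1/S and DNA replication, 6 were called higher and 6 lower in Ser2, and 0 higher and 20 lower relative to the median gene. E2F1, a transcription factor of S phase entry, fell by 0.66 on the log2 scale (SE 0.11, adjusted p = 0.000225), and MCM6, a subunit of the replicative helicase, fell by 0.49 (SE 0.10, adjusted p = 0.000908), as did MCM2 by 0.37 and MCM3 by 0.34. FEN1, DNMT1, RRM1 and RPA2 rose, by 0.52, 0.34, 0.32 and 0.33. In total RNAPII limma on uncentred values called no gene of these lists between these hours, and the list medians relative to the median gene were 0.42 for the 9 members, 0.44 and 0.46 for the further cell-cycle spindle and cytokinesis genes, 0.05 and 0.00 for those used at all times, and -0.52 for the G1/S genes.

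**Figure D5:**
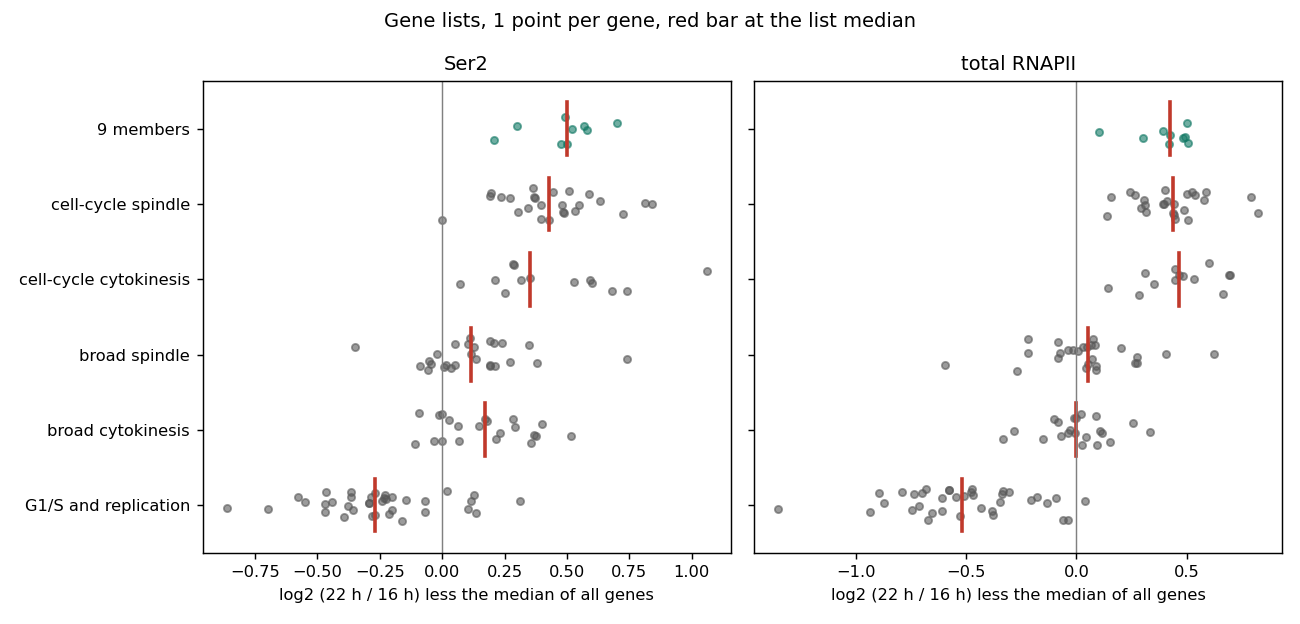
Log2 ratio of RPM at 22 h to RPM at 16 h less that of the median gene, in Ser2 (left) and total RNAPII (right). There is 1 point per gene and a red bar at the list median. The word "broad" marks genes listed as used at all times, and the x axes differ between panels. The 9 members and the cell-cycle spindle and cytokinesis genes lie to the right (list medians 0.50, 0.43 and 0.35 in Ser2), and 6 of 36 G1/S and replication genes lie above 0 in Ser2 (median -0.27).

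For the ATRi to DMSO change in total RNAPII, no list gene was called. The list medians relative to the median gene were 0.17 for the 9 members, 0.14 for the further cell-cycle spindle genes and 0.15 for the cytokinesis genes. They were 0.02 and 0.05 for the genes used at all times, and 0.00 for the G1/S genes. PLK1, the mitotic kinase, had 0.49 ± 0.24, INCENP 0.39 ± 0.21 and RHOA 0.39 ± 0.18, none of them called (adjusted p = 0.767 for each). In Ser2 the list medians relative to the median gene were 0.06 for the members, 0.05 for each further cell-cycle list, -0.00 and 0.06 for the genes used at all times, and -0.03 for the G1/S genes, again with no call.

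Neighbouring genes did not all follow the members. In Ser2 between 22 h and 16 h the median gene had 0.21, and 39% of all genes were called higher. ZBTB41, 6986 bp from ASPM, had a Ser2 change between 22 h and 16 h of 0.20 (adjusted p = 0.149) where ASPM had 0.73, and MATCAP2, divergent from ANLN, had 0.15 (adjusted p = 0.193) where ANLN had 0.90. VPS36, 4801 bp from CKAP2, rose by 0.27 (adjusted p = 0.0432), less than CKAP2 with 0.79. NUDCD2, 63 bp from HMMR, rose by 0.44 (adjusted p = 0.00341), close to the 0.41 of HMMR. RCCD1, 2913 bp from PRC1, rose by 0.76 (adjusted p = 0.000144) where PRC1 rose by 0.71, and NDUFAF1, 6299 bp from NUSAP1, rose by 0.65 (adjusted p = 0.000211) where NUSAP1 rose by 0.70. The other neighbours within 100 kb stood between -0.03 for EEPD1, near ANLN, and 0.59 for NCEH1, near ECT2. Differences between a member and its neighbour were not tested.

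Across all 14 libraries the members followed a common profile, taken relative to the median gene and to the mean of each antibody. Each of 8 members correlated with the mean of the other 8 at a Pearson r of 0.91 to 0.99, TPX2 (0.99) and CKAP2 (0.98) most and HMMR least, and DLGAP5 stood apart at 0.63. The median of 10492 named genes was 0.06. The points share their library, depth and hour, and r is given as a description. In Ser2 alone DLGAP5 correlated at 0.43 and in total RNAPII alone at 0.81, over 7 libraries each. The genes outside the set whose profile was most like the mean of the members were MKI67, the proliferation antigen Ki-67, at 0.995, and HJURP, the chaperone of the centromeric histone, at 0.988. KPNA2, NDC80, LOC100288637, CDCA8, KIF2C, BUB1, KIFC1 and GTSE1 followed at 0.979 to 0.972. MKI67 ranked first also without centring, in Ser2 alone and in total RNAPII alone.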

How the data were processed

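Bowtie2 2.3.3.1, SAMtools 1.4 and the build hg38 are named for these ChIP-seq reads, per the submitters' processing notes; counting, annotation, and any use of input, spike-in or duplicate removal are not given in the sources used here. The authors deposited 1 table of RPM values for 12425 genes and 14 libraries, with a length column equal to the gene span. Every RPM value was a whole multiple of 1 read (tolerance 0.01), so whole reads were recovered.

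Symbols were assigned by position against RefSeq GRCh38 genes (10736 genes, 86.4%); the members matched with a Jaccard index of at least 0.90. The 14 mitochondrial genes were left out. Tests used limma 3.58.1 (R 4.3.3, trend, two-sided) on log2(RPM + 0.5). Genes averaging under 1 RPM were dropped, and all 9 members passed. P-values were Benjamini-Hochberg adjusted over all genes tested at 0.05. A fold is on that log2 scale and is understated for low genes. ATRi was tested with hour as a block in the 6 treated libraries of an antibody, hours with treatment as a term, and antibodies in 1 fit of 12 libraries. Alternatives were median centring, pseudocounts, no filter, background and density trend, edgeR 4.0.16 and DESeq2 1.42.0 on recovered reads, and libraries left out. The limma fits alone were also run on simulated reads with known changes, and the outcome is not given here. Ratios of single pairs have 95% exact binomial counting intervals; a floor of 3 reads was 0.048 to 0.175 RPM.

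Members and lists were chosen with earlier results of these data known. The text names all members, from other lists the genes with the smallest adjusted p or, without calls, the largest change with 1 sign in every pair, of which a few are given, the 10 genes most like the members, and adjacent genes within 100 kb, of which a few are given.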

Additional observations from a re-analysis of the deposited data

Results flagged for a closer look

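At 19 h the ATRi to DMSO ratio had the opposite sign to that at 16 h and at 22 h in 5 members in total RNAPII. It was -0.040 for CKAP2, -0.045 for HMMR, -0.068 for NUSAP1, -0.048 for PRC1 and -0.0074 for TPX2. In Ser2 the same held for CKAP2, at -0.0042. Only for NUSAP1 did the 95% counting interval lie below 0. In total RNAPII the median gene had the same signs, with 0.05 at 16 h, -0.03 at 19 h and 0.50 at 22 h. Of all genes, 40.5% had a ratio above 0 at 19 h in total RNAPII and 75.1% in Ser2.

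In total RNAPII the log2 ratio of 22 h to 16 h was above 0 in the ATRi pair and below 0 in the DMSO pair for 2 members, at -0.057 for PRC1 and -0.24 for HMMR in DMSO. Likewise, the ratio of 22 h to 19 h was above 0 in the ATRi pair for 4 members that lay below 0 in the DMSO pair. These were ASPM (0.29 in ATRi, -0.56 in DMSO), ANLN (0.07 in ATRi, -0.90 in DMSO), ECT2 (0.01 in ATRi, -0.74 in DMSO) and DLGAP5 (0.16 in ATRi, -0.38 in DMSO). For ECT2 the 95% counting intervals of the 22 h and 19 h ATRi libraries overlapped, so the sign of its ATRi ratio lay within counting error. Of all genes, 72.4% had a ratio of 22 h to 16 h above 0 in the ATRi pair and 16.4% in the DMSO pair. The median gene had a log2 ratio of 22 h to 19 h of -0.33 in ATRi and -0.91 in DMSO. Each member value comes from 1 pair of libraries, and none of these differences was tested.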

How the results depend on the processing

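No comparison called a member lower under any alternative. ATRi against DMSO in total RNAPII called 0 members under all 12 alternatives, and every member stayed above 0, with changes down to 0.06 without the 22 h libraries. In Ser2, leaving out an hour gave 0 to 2 calls, among 0 to 848 genes called higher, and removal of the trend with read density turned NUSAP1 (-0.035), PRC1 (-0.024) and CKAP2 (-0.046). For Ser2 minus total RNAPII, HMMR turned to 0.0050 without the trend, and leaving out an hour gave -0.36 to 0.017 for NUSAP1, -0.34 to 0.034 for ANLN and -0.23 to 0.094 for HMMR, the values above 0 being those without 22 h. Between 22 h and 16 h in total RNAPII, 8 members were called with the trend removed, among 576 genes higher and 583 lower, and in the DMSO pair PRC1 was -0.057 and HMMR -0.24. In Ser2, subtracting background left 0 calls, and the members' median above the median gene was 0.67 then, 0.37 without the trend and 0.43 in the DMSO pair. Between 19 h and 16 h, total RNAPII gave 0 calls with centring, background subtraction, trend removal, edgeR, DESeq2 or no replicate block, and 9 without the 22 h libraries, when 9259 of 12031 genes were called higher; the members' median fell to 0.10 without the trend. HMMR was then -0.0013 (centring), -0.20 (trend), -0.036 (edgeR) and -0.062 (DESeq2), and ASPM -0.093 (trend). In Ser2 trend removal left 4 calls, among 1933 genes called higher and 1780 lower, and a median of 0.16, against 0.40 with background subtraction; DLGAP5 was -0.13 (centring), -0.16 (trend), -0.16 (edgeR) and -0.19 (DESeq2), and HMMR -0.10 (trend). For the 22 h to 16 h change in Ser2 minus total RNAPII, the median was -0.044 without the trend and 0.12 in the DMSO pair. ASPM and DLGAP5 turned to -0.021 and -0.25 (centring), -0.039 and -0.26 (edgeR) and -0.030 and -0.25 (DESeq2), and DLGAP5 to -0.038 in the ATRi pair. Without the trend ASPM was -0.11, TPX2 -0.059, NUSAP1 -0.078, ANLN -0.025, ECT2 -0.045, HMMR -0.0084, DLGAP5 -0.20 and CKAP2 -0.0096. Of the 10 genes most like the members, 5 were shared without centring, 4 in Ser2 alone and 5 in total RNAPII alone. The cause of these shifts was not tested.

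The hour or treatment served as the replicate block. Without the replicate block, 9 members were called between 22 h and 16 h in Ser2, among 2554 genes called higher, and 0 members and 0 genes in total RNAPII. There was 1 library per group, and each member held at least 215 reads in each library.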
